A study of Mus musculus with 4 samples.

Results

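CD150+CD48+ progenitors without lineage transcripts were examined in the E17.5 mouse fetal liver. They numbered 652 of 8094 cells in all, 462 of 5352 in the WT library and 190 of 2742 in the KO library. The cells had been sorted as LSK cells, the immature fraction that is negative for lineage markers and positive for both Sca1 and c-Kit. CITE-seq was used, in which transcripts and DNA barcodes on antibodies (tags) are counted together for each droplet. WT cells came from Bclaf1f/f embryos and KO cells from Vav-Cre:Bclaf1f/f embryos, so both groups carry the floxed Bclaf1 alleles, and KO cells also carry Cre under the Vav promoter, which is active across blood cells. The effect of Cre itself cannot be told apart from that of losing Bclaf1 in this design. Each genotype was 1 library, made from 10 pooled embryos after bead enrichment of c-Kit+ cells and a double sort. The 4 deposited samples are the RNA and tag parts of these 2 libraries. With 1 library per genotype there was no test between genotypes, and every interval below covers counting error only.

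The members were chosen by measured values. A cell needed at least 8000 gene UMIs (unique molecular identifiers, one per captured RNA molecule) and at most 10% mitochondrial UMIs. Tag counts were put on a centred log ratio (CLR) scale, the natural log of 1 plus the count minus its mean over the 6 antibodies. Members had a CD150 CLR above -1.14, a CD48 CLR of at least 2.34, and under 2 UMIs each of Elane (neutrophil elastase), Klf1 (an erythroid transcription factor), Pf4 (platelet factor 4), Il7r (the interleukin 7 receptor) and Cma1 (mast cell chymase). A member could thus hold 1 UMI of any of these 5 genes, and "without lineage transcripts" stands for this limit. No such UMI was counted in 318 of the 462 WT members and 112 of the 190 KO members. The levels of these 5 transcripts and of the CD150 and CD48 tags are therefore descriptions of the gate. Counts of the other antibodies enter the CLR through its mean, so they are not independent of the gate either.

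CD150 and CD48 are surface receptors of the SLAM family. In the LSK compartment CD150+CD48- cells include the haematopoietic stem cells, and CD150-CD48+ cells hold progenitors with granulocyte, monocyte and lymphoid output. CD150+CD48+ cells are known as MPP2, a multipotent progenitor with megakaryocyte, erythroid and myeloid output. Bclaf1 encodes a nuclear protein linked to transcription, splicing and the DNA damage response.

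The gate rests on short DNA barcodes attached to the antibodies, each read in the same droplet as the RNA. CD201, a surface protein on which the gate set no limit of its own, was lower in members than in CD150+CD48- cells. The 15-base barcodes of the 2 gating antibodies and of CD201 were as follows, 5′ to 3′.
CD150: caacgcctagaaacc
CD48: agaaccgccgtagtt
CD201: tatgatctgcccttg
The genes of the 2 gating receptors are neighbours in the SLAM cluster of mouse chromosome 1. In GRCm38.p6 Slamf1, which encodes CD150, spans chr1:171767131-171801184 and Cd48 spans chr1:171681245-171705258, with 61.9 kb between them.

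**Figure D1:**
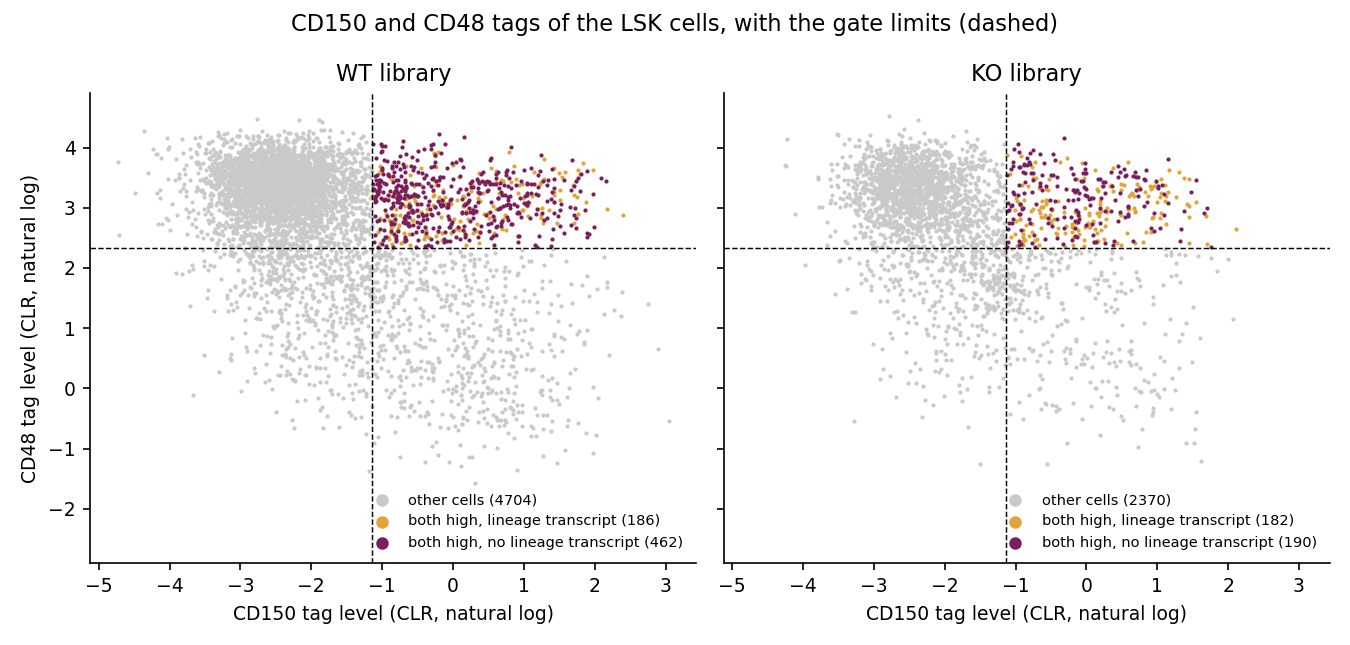
CD150 CLR (x axis) against CD48 CLR (y axis), both on a natural log scale, for each cell of the WT library (left) and the KO library (right); dashed lines are the limits of the gate. The 462 WT and 190 KO members (purple) lie in the upper right. With them lie the 186 WT and 182 KO cells that had at least 2 UMIs of a lineage gene (yellow). Cells lie on both sides of each limit.

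The members made up 8.63% of WT cells (exact Clopper-Pearson 95% interval 7.89 to 9.42) and 6.93% of KO cells (6.01 to 7.94). Before the limit on lineage transcripts, the tag gate held 648 WT cells (12.1%) and 372 KO cells (13.6%). The transcript limit removed 28.7% of these in WT (25.2 to 32.4) and 48.9% in KO (43.7 to 54.1). Klf1 was the most frequent reason, in 133 WT and 134 KO cells, followed by Pf4 in 54 and 46. KO cells held more UMIs per cell, and a limit of under 2 UMIs is stricter in a cell with more UMIs. With every cell thinned to 8000 UMIs, the limit removed 8.95% of WT cells (6.87 to 11.4) and 14.8% of KO cells (11.3 to 18.8), and the members then made up 11.0% of WT and 11.6% of KO cells. The higher share in WT was thus not kept at equal depth, where the 2 shares were close and were not given intervals.

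At the edge of the gate, 25 WT members lay within 0.1 CLR inside the CD150 limit and 25 cells just outside it, with 12 and 12 in KO. The corresponding numbers at the CD48 limit were 16 and 16 in WT and 12 and 5 in KO. Cells just inside the CD150 limit had a median of 44 CD150 tags in WT and those just outside 45, and the KO values were 77.5 and 66.5.

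The median depth of a member was 24342 gene UMIs (WT) or 35316 (KO), against 15676 and 20399 in CD150+CD48- cells and 24175 and 33092 in CD150-CD48+ cells. The summed depth of the members was 12256334 gene UMIs for WT and 6751480 for KO. Levels below are in CPM, the UMIs of a gene per 1000000 gene UMIs of the same group of cells. A total of 28 WT and 2 KO members had over 2 times the median UMIs of their library. The libraries shared 5 cell barcodes, none of them a member. Macrophage markers summed to 2.61 CPM in WT members and 2.22 in KO members, markers of mature B, T and NK cells to 6.36 and 5.63, and endothelial and stromal markers to 7.91 and 11.0; 2, 5 and 3 of the 8 genes of these lists had no UMI in KO members. Hepatoblast markers summed to 41.3 and 43.8 CPM.

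The marker genes of the population were present in both libraries. Slamf1 stood at 21.9 CPM in WT members and 28.4 in KO members, close to CD150+CD48- cells (21.8 and 28.5) and far above CD150-CD48+ cells (1.84 and 2.31). Cd48 stood at 235 and 231 CPM, against 33.2 and 37.3 in CD150+CD48- cells. Both transcripts thus followed the tags used for gating. Gata2, a transcription factor of stem, megakaryocyte and mast cell progenitors that the gate did not use, stood at 70.7 and 98.5 CPM in members, 63.5 and 67.3 in CD150+CD48- cells and 21.6 and 35.2 in CD150-CD48+ cells. At 8000 UMIs per cell, Gata2 was seen in 36.8% of WT members (32.4 to 41.4) and 47.4% of KO members (40.1 to 54.7). In Il7r-positive cells, which should have little of it, the share was 10.1% in WT and 14.6% in KO. Without thinning the shares of members were 67.5% and 82.1%, at the median depths given above, and those of the Il7r-positive cells 20.2% and 25.5%, at medians of 21902 and 34197 UMIs.

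The promoter of Slamf1 is shown because Slamf1 and Gata1 transcripts were both higher in members with more CD150 tag, as given further on. It covers 250 bases before and 50 bases from the start of the RefSeq gene, on the plus strand at chr1:171766882-171767181 of GRCm38.p6, with the 1 match to the letters GATAA, a core that GATA factors can bind, in capitals.
Slamf1: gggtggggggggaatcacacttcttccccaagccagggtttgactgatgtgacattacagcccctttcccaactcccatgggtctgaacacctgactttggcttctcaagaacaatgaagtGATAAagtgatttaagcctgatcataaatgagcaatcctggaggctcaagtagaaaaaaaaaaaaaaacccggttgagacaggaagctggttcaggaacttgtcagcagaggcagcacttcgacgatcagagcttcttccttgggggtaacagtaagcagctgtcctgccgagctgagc
On either strand, GATAA was present in the promoters of 2 of the 8 genes with a RefSeq window among the 10 that ranked highest over CD150-CD48+ cells, Slamf1 and Icam4. It was present in 25.4% of all 32851 promoter windows, which is near the share among the 8. Slamf1 encodes CD150, so its rise with the CD150 tag is not independent of the grouping. A link between GATA factors and Slamf1 was not tested.

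The other antibodies had no limit of their own, but their counts enter the CLR mean and are not independent of the gate. For CD201 and Sca1 the median tag counts of members lay nearer to CD150-CD48+ cells than to CD150+CD48- cells. How far the CLR mean adds to this was not tested. The median CD201 (endothelial protein C receptor) tag count was 8 in WT members and 29 in KO members. It was 44.5 and 91 in CD150+CD48- cells, and 8 and 30 in CD150-CD48+ cells. Empty droplets averaged 3.18 CD201 tags in WT and 10.3 in KO. Sca1 was read through a barcode on streptavidin. Its median count in members was 112 in WT and 130 in KO, below the level in CD150+CD48- cells (332.5 and 329) and below that in CD150-CD48+ cells (138.5 and 181). CD34 took an intermediate place, with medians of 29 and 52 in members, 16 and 33 in CD150+CD48- cells and 75 and 149 in CD150-CD48+ cells. CD117, the receptor c-Kit, was high in all gates, with medians of 734.5 and 1070.5 in members. KO cells carried more tags of nearly every antibody than WT cells, in all gates, so tag counts were compared within a library.

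**Figure D2:**
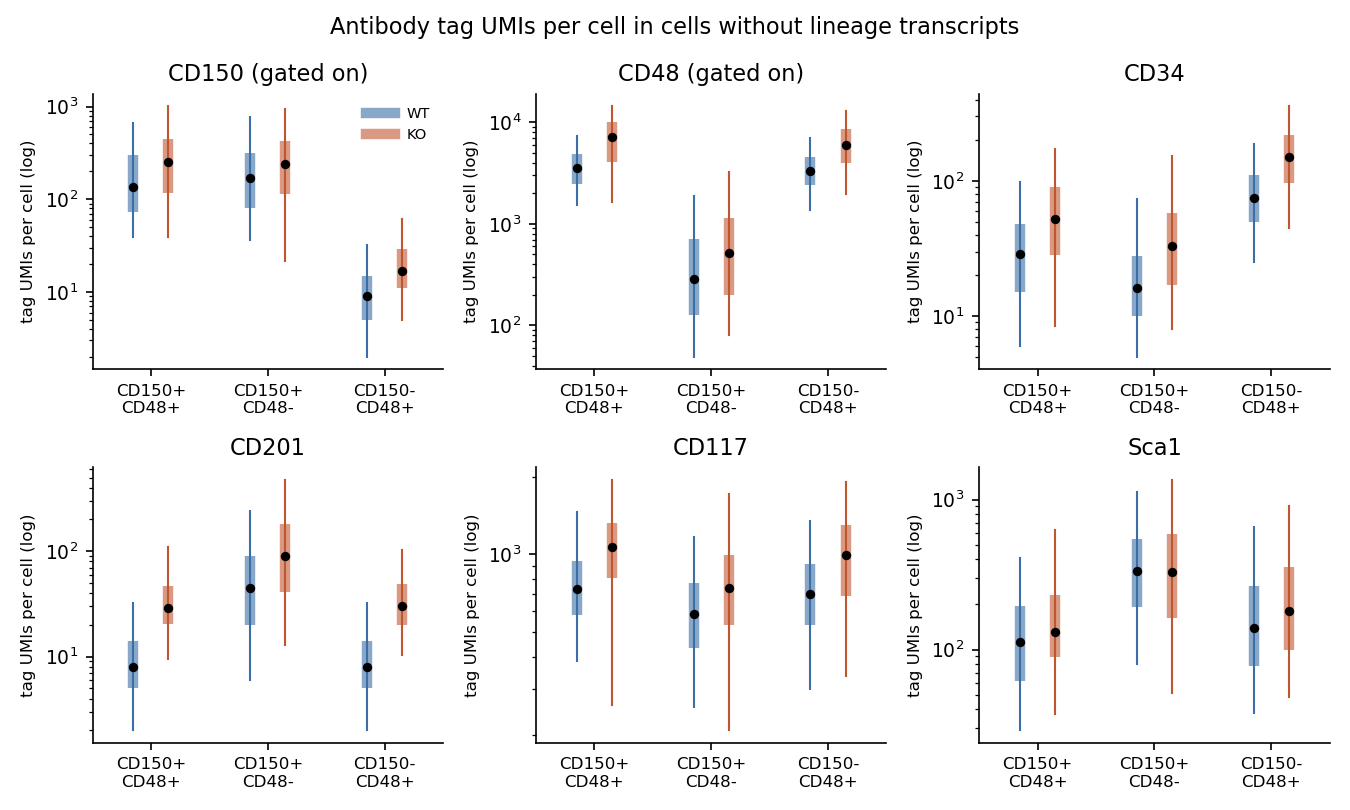
Tag UMIs per cell on a log axis for the 6 antibodies in members and the 2 neighbouring gates, WT in blue and KO in orange; dots are medians, thick bars the middle 50% and thin bars the 5th to 95th percentile of cells. In both libraries CD201 and Sca1 of the CD150+CD48+ cells lie below the CD150+CD48- cells, and CD34 lies between its neighbours.

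The transcripts of the same proteins gave a similar order for Procr and Ly6a. Procr, which encodes CD201, stood at 7.91 and 6.67 CPM in members, against 54.2 and 47.5 in CD150+CD48- cells and 6.59 and 6.68 in CD150-CD48+ cells. Ly6a, which encodes Sca1, was low throughout, at 7.75 and 5.48 CPM in members and 25.7 and 22.6 in CD150+CD48- cells. Cd34 transcript stood at 143 and 134 CPM in members, 125 and 121 in CD150+CD48- cells and 242 and 253 in CD150-CD48+ cells. Kit transcript was 188 and 203 CPM, and its level in CD150-CD48+ cells was 184 and 198.

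Against CD150+CD48- cells, the gate that holds the stem cells, the members had lower stem cell genes, more transcripts of the cell cycle, and higher levels of some erythroid, megakaryocyte and myeloid genes. A gene was counted as higher or lower where it lay at least 1.5-fold apart in the same direction in both libraries, among genes with at least 20 CPM. By this rule 146 of 5725 genes (2.55%) were higher in members and 400 (6.99%) were lower. Of 18 measured genes of the stem cell identity list, 13 were lower and 0 higher. The median log2 ratio of the list was -1.38 in WT and -1.32 in KO, against -0.07 in WT and -0.07 in KO over all genes. With median-of-ratios scaling, which raised these ratios by 0.16 in WT and 0.12 in KO, the counts were 297 genes higher and 242 lower.

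Mecom, a transcription factor needed by stem cells, stood at 54.5 CPM in WT members and 56.3 in KO members, and at 266 and 267 in CD150+CD48- cells. The members thus held Mecom at a low level that was still above CD150-CD48+ cells (32.9 and 32.2). Mllt3, a regulator of stem cell maintenance, followed the same order, with 41.9 and 46.4 CPM in members, 221 and 223 in CD150+CD48- cells and 20.7 and 23.3 in CD150-CD48+ cells. Hlf, a transcription factor of stem cells, stood at 142 and 147 CPM in members, 445 and 483 in CD150+CD48- cells, and 174 and 192 in CD150-CD48+ cells. Among these gates Hlf was therefore lowest in members, though the log2 ratio to CD150-CD48+ cells was small (-0.29, -0.37 to -0.22, in WT and -0.39, -0.48 to -0.29, in KO).

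Of 10 measured imprinted growth genes, 5 were lower in members than in CD150+CD48- cells and 0 higher. H19, an imprinted non-coding RNA of mouse chromosome 7, stood at 10.4 CPM in WT members and 13.3 in KO members, and at 99.8 and 131 in CD150+CD48- cells. Igf2, the growth factor gene beside it, was nearly absent from members: 3 UMIs were counted in WT and 4 in KO, against 21.1 and 23.8 CPM in CD150+CD48- cells, a log2 ratio of -6.43 (-8.72 to -4.86) in WT and -5.33 (-7.23 to -3.94) in KO. Meg3, an imprinted non-coding RNA, stood at 16.2 and 25.5 CPM in members, 101 and 138 in CD150+CD48- cells and 4.61 and 6.45 in CD150-CD48+ cells. H19 stood at 8.24 and 9.05 CPM in CD150-CD48+ cells, so for both genes the members lay between their neighbours in each library.

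The other genes that ranked lowest against CD150+CD48- cells were Bank1, an adaptor of B cell signalling (log2 ratio -4.28 in WT and -3.62 in KO), Wfdc2 (-3.60 and -3.14), Ltb, the gene of lymphotoxin beta (-2.58 and -2.83), and Itsn1, an endocytic scaffold (-2.79 and -2.79). Of 20 measured interferon response genes, 10 were lower in members, among them Isg15 and Gbp7, and 0 were higher. The median of that list was -0.66 in WT and -0.61 in KO. MHC class I genes had medians of -0.66 and -0.56, with 2 of 7 measured genes past the fold in both libraries.

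The genes that ranked highest came from different branches. Cpa3, mast cell carboxypeptidase, stood at 23.9 and 29.2 CPM in members and 1.92 and 1.63 in CD150+CD48- cells, and the 5 highest members held 25.6% of its UMIs in WT and 52.3% in KO. Mpo, myeloperoxidase of the granulocyte and monocyte branch, stood at 151 and 139 CPM against 26.4 and 27.1. The megakaryocyte integrin gene Itga2b stood at 24.4 and 24.3 CPM against 5.46 and 9.58. Gata1, the erythroid and megakaryocyte transcription factor, stood at 28.6 and 29.6 CPM against 4.14 and 7.74. Cpa3 and Mpo were ranked by their interval bounds, so lying past counting error in each library was part of their choice. Gata1 and Itga2b, which were not among the 10 highest here, also lay apart from the stem cell gate by more than counting error. Free RNA in empty droplets held more Cpa3 (137 and 123 CPM) and Mpo (437 and 402) than the members did. Tespa1, Nkg7, Bin1, Plek, Serpinb1a and Runx3 completed the highest ranks, with log2 ratios from 2.02 to 2.81 in WT and from 2.13 to 3.27 in KO. Of 11 measured erythroid genes 6 were higher and 0 lower, and of 9 measured megakaryocyte genes 3 were higher and 0 lower. The 6 included Mt1, of which 1 cell held 25.3% of the UMIs of WT members and 30.95% of those of KO members. Of 6 measured granulocyte and monocyte genes 2 were higher (Mpo and Nkg7) and 2 lower (Gfi1 and Lyz2), and the medians of that list were -0.06 in WT and 0.08 in KO, with -0.55 in KO after thinning. The erythroid median was 0.97 in WT and 0.34 in KO, and the KO value was -0.15 with the CD150 limit lowered by 0.3 and -0.33 with the CD48 limit raised by 0.3.

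Of 46 measured G2/M genes, 16 were higher in members and 0 lower, and of 39 measured genes of DNA replication and S phase 9 were higher and 0 lower. The medians were 0.59 in WT and 0.49 in KO for G2 and M phase, and 0.47 and 0.60 for S phase. Mki67, a marker of cycling cells, was seen at 8000 UMIs per cell in 43.7% of WT members (39.1 to 48.4) and 21.3% of WT CD150+CD48- cells (18.0 to 24.9). The KO shares were 61.6% (54.3 to 68.5) and 33.2% (27.0 to 39.9). Without thinning the shares were 57.4% and 25.9% in WT, and 75.8% and 38.7% in KO. Genes of ribosome biogenesis had medians of 0.32 and 0.26, with 1 of 24 past the fold.

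Against CD150-CD48+ cells, the most numerous gate, the members differed in genes of lineage, and no gene of the S phase or G2/M lists lay past the fold in both libraries. Here 133 of 5297 genes (2.51%) were higher in members in both libraries and 112 (2.11%) lower. Of 9 measured megakaryocyte genes 7 were higher and 0 lower, and of 11 measured erythroid genes 9 were higher and 0 lower. These 9 included the metallothionein genes Mt1 and Mt2, whose UMIs came in large part from single cells. For Mt1, 1 cell held 25.3% of the UMIs of WT members and 30.95% of those of KO members. Of 9 measured granulocyte and monocyte genes 7 were lower, and of 10 measured lymphoid genes 6 were lower, with 0 higher in either list. The median log2 ratios were 1.19 in WT and 1.40 in KO for megakaryocyte genes, 2.12 and 1.92 for erythroid genes, -1.53 and -1.74 for granulocyte and monocyte genes, and -1.48 and -1.73 for lymphoid genes, against 0.05 and 0.07 over all genes. None of the 47 measured G2 and M phase genes lay past the fold in both libraries, and the medians of that list were 0.13 and 0.32.

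Gata1 stood at 28.6 and 29.6 CPM in members and at 1.63 and 3.14 in CD150-CD48+ cells. It was therefore higher in members than in both neighbours. The gate limited Klf1, its partner in the erythroid branch. Itga2b was 2.31 and 3.52 CPM in CD150-CD48+ cells, and Icam4, a red cell adhesion molecule, stood at 22.6 and 27.1 CPM in members against 2.35 and 3.72. F2r, a thrombin receptor, stood at 53.6 and 65.3 CPM in members, 19.5 and 26.1 in CD150+CD48- cells and 10.2 and 12.0 in CD150-CD48+ cells. Among members and these 2 neighbouring gates, members were highest for each of these genes in both libraries. CD150-CD48- cells, under the same lineage limit, were not part of this comparison.

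Other genes that were higher than in CD150-CD48+ cells were not higher than in the stem cell gate. Rab27b, a GTPase of granule secretion, stood at 23.4 and 23.8 CPM in members, 21.3 and 24.5 in CD150+CD48- cells, and 3.64 and 3.60 in CD150-CD48+ cells; its log2 ratio to CD150+CD48- cells was 0.14 (-0.13 to 0.40) in WT and -0.04 (-0.39 to 0.32) in KO. Pdzk1ip1 was lower than in CD150+CD48- cells (-2.11 and -2.40) and higher than in CD150-CD48+ cells (2.68 and 2.73). Vwf, von Willebrand factor, was sparse, at 4.49 and 2.37 CPM in members against 13.7 and 14.5 in CD150+CD48- cells and 0.38 and 0.42 in CD150-CD48+ cells.

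Gm15915, a long non-coding RNA of chromosome 10 (GRCm38.p6 chr10:93674218-93683322), had the highest ratio of all ranked genes over CD150-CD48+ cells. It stood at 54.2 CPM in WT members and 22.1 in KO members, against 0.81 and 0.87 in CD150-CD48+ cells and 1.52 and 3.06 in CD150+CD48- cells. Its UMIs came from few cells, 75 of 462 in WT and 39 of 190 in KO, and the 5 highest cells held 39.0% and 57.7% of them. Mt2, metallothionein 2, also ranked high (3.22 and 2.41), but 1 cell held 47.97% of its WT UMIs and 39.0% of its KO UMIs in members.

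The genes that ranked lowest against CD150-CD48+ cells included genes of lymphoid, dendritic and granulocyte cells. Flt3, the receptor that marks lymphoid and dendritic potential, stood at 19.99 and 20.14 CPM in members, 90.3 and 89.0 in CD150-CD48+ cells and 31.4 and 32.4 in CD150+CD48- cells. Cd74, the MHC class II invariant chain, stood at 1.47 and 1.04 CPM against 28.6 and 20.1. Trbc2 of the T cell receptor (6.12 and 5.04 CPM against 73.1 and 70.3) and Ighm of immunoglobulin (4.57 and 4.44 against 49.7 and 49.1) were likewise low. Ctsg, a neutrophil protease, stood at 7.67 and 11.8 CPM against 51.1 and 85.5. Mpo lay between the neighbours, since CD150-CD48+ cells held 343 and 385 CPM of it.

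**Figure D3:**
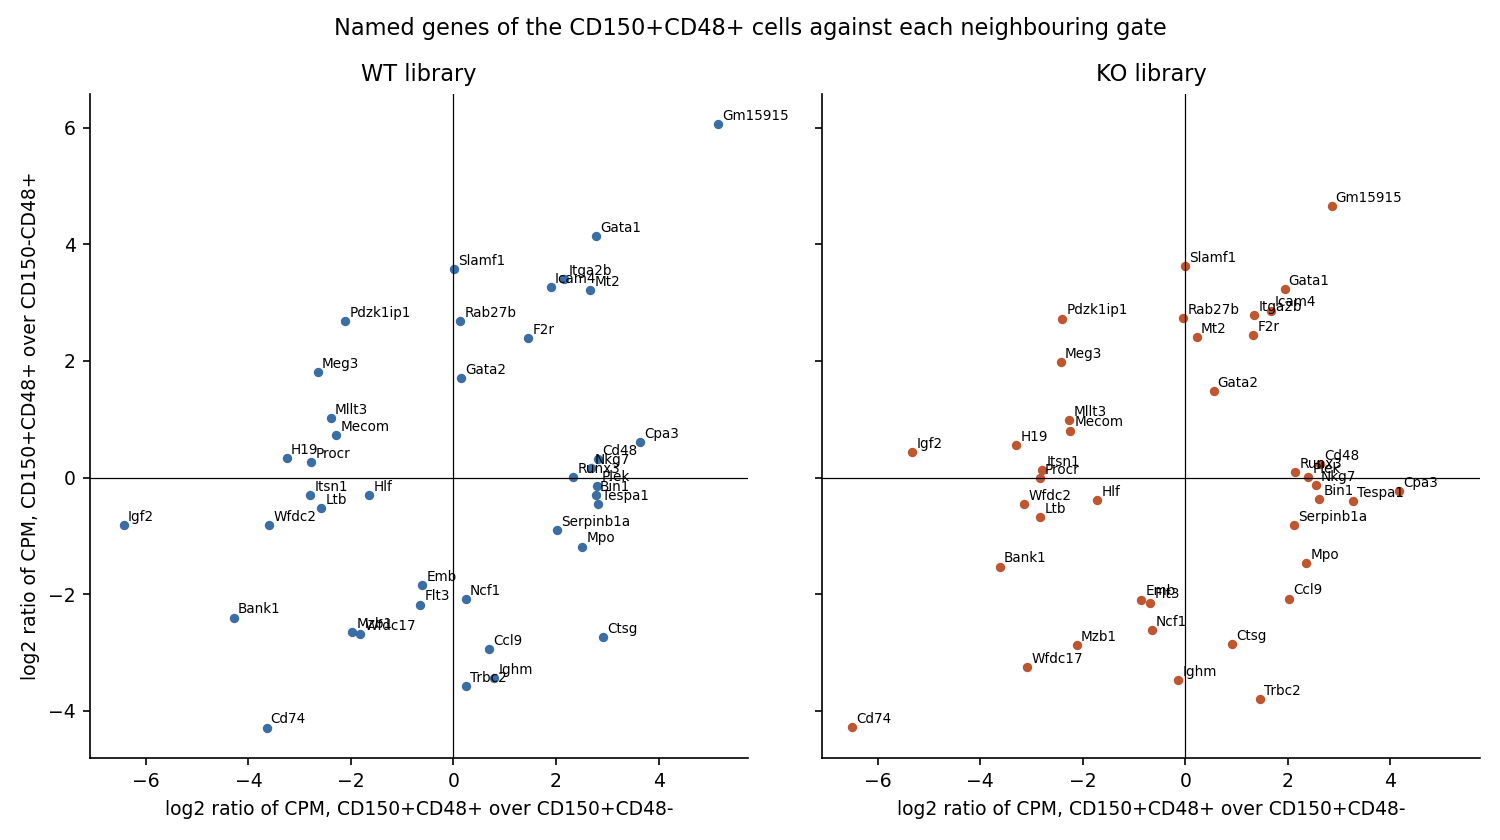
Log2 ratio of CPM of CD150+CD48+ cells over CD150+CD48- cells (x axis) and over CD150-CD48+ cells (y axis) for the named genes, WT left and KO right. Gata1, Icam4, Itga2b, F2r and Gm15915 lie in the upper right of both panels, above both neighbours, and Mecom, Mllt3 and Meg3 lie in the upper left, between the stem cell gate and CD150-CD48+ cells.

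The cells that the transcript limit removed from the tag gate were compared as another neighbour. The rule used 5 transcripts to separate these groups, and genes that travel with them follow, so the ratios describe the cut. In both libraries 500 of 5337 genes (9.37%) were higher in members and 220 (4.12%) lower. Of 14 measured stem cell identity genes 12 were higher in members, and of 19 measured erythroid genes 14 were lower. Gata1 stood at 56.1 and 66.3 CPM in the removed cells. Rhd, a blood group antigen gene, stood at 2.04 and 1.33 CPM in members against 46.0 and 31.0 in removed cells, and Ermap, another red cell membrane gene, at 4.895 and 9.035 against 107 and 109. Hlf stood at 34.0 and 20.6 CPM in the removed cells. Removed cells had medians of 42568 UMIs in WT and 58236 in KO, and 82 of 186 and 69 of 182 had over 2 times the median UMIs of their library.

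Within the members, several transcripts differed with the level of the CD150 tag, a value that the gate also used. The members of both libraries were divided by CD150 CLR into 3 groups of nearly equal size over both libraries, CD150-low, CD150-middle and CD150-high, with 155, 143 and 164 WT cells and 63, 74 and 53 KO cells from low to high. Several genes of the erythroid and megakaryocyte branches were higher in the CD150-high group in both libraries. Gata1 stood at 9.44, 20.8 and 53.1 CPM from the CD150-low to the CD150-high group in WT and at 16.0, 26.3 and 49.2 in KO. Itga2b stood at 8.72, 12.97 and 48.57 CPM in WT and 16.0, 21.96 and 36.63 in KO. F2r stood at 25.7, 39.2 and 91.7 CPM in WT and 30.1, 56.5 and 116 in KO. Slamf1 itself, whose protein sets the groups, had a log2 ratio of high over low of 2.69 in WT and 2.43 in KO. The CD150-low group adjoined the gate limit, where cells lay on both sides. The part of CD150-CD48+ cells in these differences was not tested.

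Mpo, Flt3 and Hlf ran the other way in both libraries. Mpo stood at 224, 151 and 82.0 CPM from low to high in WT and 244, 126 and 45.5 in KO. Flt3 stood at 30.5, 23.5 and 7.23 CPM in WT and 29.1, 18.0 and 13.6 in KO. Hlf had a log2 ratio of high over low of -1.63 (-1.83 to -1.43) in WT and -1.13 (-1.39 to -0.88) in KO. Mecom differed less in KO (-0.21, -0.61 to 0.20) than in WT (-0.98, -1.28 to -0.68), and the difference between the libraries was not tested. Cycling was nearly even over the groups, with a log2 ratio for Mki67 of 0.18 (0.05 to 0.31) in WT and 0.12 (-0.04 to 0.29) in KO. Depth differed little in WT (medians of 23514, 24217 and 25190 UMIs) and more in KO (31334, 37245 and 37083).

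**Figure D4:**
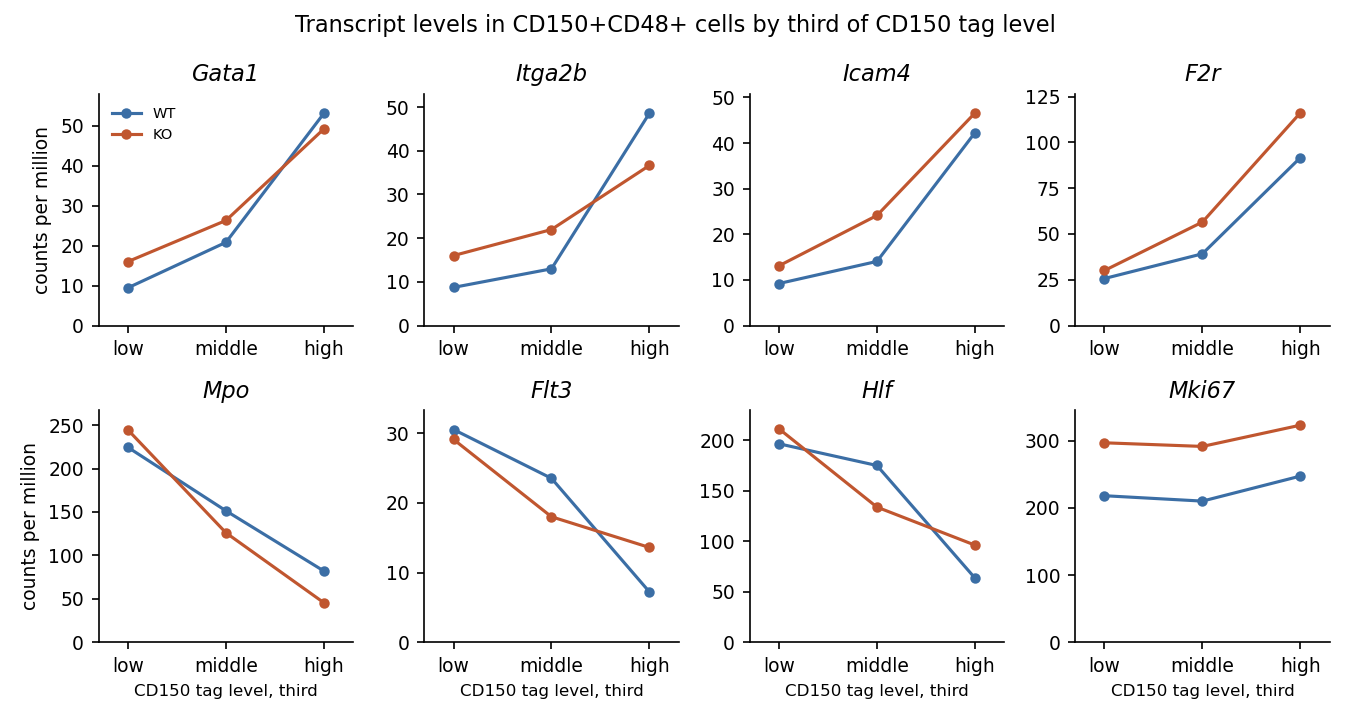
CPM (y axis) of 8 genes in CD150+CD48+ cells with low, middle and high CD150 tag level (x axis), WT blue and KO orange; each point is the sum over the cells of 1 group of 1 library. Gata1, Itga2b, Icam4 and F2r are highest in the high group in both libraries, Mpo, Flt3 and Hlf are lowest there, and Mki67 is nearly level.

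Single cells showed a similar split of Gata1 from Mpo and Flt3, with some overlap. At 8000 UMIs per cell, Gata1 was seen in 79 WT members (17.1%) and 38 KO members (20%), against 2.38% and 4.38% of Il7r-positive cells, which set the background. Without thinning it was seen in 34.6% and 44.7% of members. Mpo was seen in 39.2% of the WT members with Gata1 and in 56.1% of those without, and in 31.6% and 50.7% in KO. Both transcripts were seen in 31 WT members and 12 KO members. As a background for Mpo, Klf1-positive cells showed it in 15.9% (WT) and 13.6% (KO), and as one for Flt3 in 6.15% and 1.36%. Without thinning those shares were 32.7% and 37.1% for Mpo and 15.9% and 9.54% for Flt3, at medians of 52945 and 69241 UMIs, and members showed Mpo in 74.2% and 78.4% and Flt3 in 29.7% and 24.2%. The pairs were not corrected for this background. Flt3 was seen in 1 of the 79 WT members with Gata1 and in 2 of the 38 KO members, compared with 16.2% and 11.8% of the members without Gata1. Mki67 was seen in 58.2% of WT members with Gata1 and 40.7% of those without, and in 65.8% and 60.5% in KO. Doublets remained in these data, and their part in these pairs was not tested.

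The 2 genotypes were then compared within the gate. Bclaf1 (GRCm38.p6 chr10:20310512-20342644) stood at 226 CPM in WT members and 79.7 CPM in KO members, a log2 ratio of -1.50 (-1.64 to -1.37). The ratio was -1.30 in CD150+CD48- cells and -1.51 in CD150-CD48+ cells. Free RNA in empty droplets held 203 CPM of Bclaf1 in WT and 91.4 in KO. Which exons are flanked by the loxP sites is not given in the sources used here, so remaining 3′ reads can come from a transcript of the deleted allele as well as from undeleted cells. At 8000 UMIs per cell Bclaf1 was seen in 80.5% of WT members (76.6 to 84.0) and 42.1% of KO members (35.0 to 49.5).

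The comparison covered 5553 genes that reached 20 CPM in 1 or both libraries, of which 100 (1.8%) were at least 1.5-fold higher in KO members and 10 (0.18%) at least 1.5-fold lower. The median over all genes was 0.08, and scaling by the median ratio, which lowers each log2 ratio by 0.10, gave 52 higher and 22 lower. Thinning every cell before the gate gave 177 and 62. These counts describe 2 libraries and carry no error from replicate embryos or preparations.

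Immediate early genes, which are transcribed within minutes of a stimulus, were the leading group. Of 13 measured genes of the list 10 were higher in KO members and 0 lower, and over the 19 genes with at least 5 CPM on average the median log2 ratio was 1.25. Fos, which pairs with Jun in the factor AP-1, stood at 24.2 CPM in WT members and 91.1 in KO members (1.91, 1.71 to 2.12). Jun itself stood at 259 and 692 CPM (1.42, 1.35 to 1.48). Dusp1, a phosphatase of MAP kinases, stood at 14.7 and 43.5 CPM, Zfp36, which speeds the decay of messenger RNAs, at 17.6 and 49.8, and Egr1, a zinc finger factor, at 74.2 and 172. Ier5, of the same list, was not past the fold, at 21.9 and 23.8 CPM (0.12, -0.17 to 0.41).

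The immediate early genes were also higher in the neighbouring gates of the KO library, with list medians of 0.97 in CD150+CD48- cells and 1.03 in CD150-CD48+ cells. Fos had log2 ratios of 2.18 and 2.02 there. At 8000 UMIs per cell, Fos was seen in 16.7% of WT members (13.4 to 20.4) and 41.6% of KO members (34.5 to 48.9), and without thinning in 33.5% and 66.3%. Summed over the list, a member had a median of 6.5 immediate early UMIs in WT and 14 in KO at that depth. No single cell held most of the Fos transcripts, since the highest cell held 2.36% of Fos UMIs in WT members and 7.64% in KO members. Within the members Fos was lower in the CD150-high group of both libraries (-0.93, -1.37 to -0.50, in WT and -0.86, -1.17 to -0.55, in KO). The genotypes were separate preparations, and genotype and preparation cannot be told apart.

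Hspa1a and Hspa1b, inducible heat shock proteins, were higher in KO members, at 69.9 and 214 CPM and at 112 and 271 CPM. They are near-identical copies, so reads may be split between them in an uncertain way. Of 17 measured heat shock genes 3 were higher, and the median of the list was 0.16, so the group as a whole lay near the median of all genes. Cd69, an early activation receptor of blood cells, stood at 11.9 and 39.3 CPM (1.72, 1.42 to 2.02), with 0.75 (-0.08 to 1.56) in CD150+CD48- cells and 0.53 (0.46 to 0.61) in CD150-CD48+ cells. The 5 highest KO members held 44.2% of its UMIs. Commd10, of the copper metabolism domain family, stood at 11.7 and 30.5 CPM (1.38), with 1.49 and 1.51 in the neighbours. Btg2, an antiproliferative gene induced by p53, stood at 67.6 and 154 CPM (1.19).

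G2/M genes were the other group that stood higher in KO members. Of 50 measured genes 15 lay past the fold and 0 lay lower, all 52 genes of the list had a ratio above 0, and the median was 0.49. Cenpf, a kinetochore protein, stood at 120 CPM in WT and 220 in KO (0.87, 0.77 to 0.98), and Ccnb1, cyclin B1, at 39.8 and 68.3 (0.78, 0.59 to 0.96). Their ratios were 1.01 and 0.81 in CD150+CD48- cells and 0.56 and 0.28 in CD150-CD48+ cells. Of the G2/M list, 21 of 48 measured genes were past the fold in CD150+CD48- cells and 0 of 50 in CD150-CD48+ cells. Over all genes, 171 of 6090 and 65 of 5404 were at least 1.5-fold higher in KO in these 2 gates. The S phase list had a median of 0.13 with 0 of 40 measured genes past the fold, close to the 0.08 of all genes. The share of members with Mki67 at equal depth, given above, was 43.7% in WT and 61.6% in KO.

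Splicing factors differed by small amounts. None of the 44 measured genes lay past the fold, 38 had a ratio above 0, and the median was 0.17. Thrap3, the closest relative of Bclaf1, stood at 164 CPM in WT members and 242 in KO members (0.56, 0.47 to 0.66), with 0.54 and 0.46 in the neighbours. Clk1, a kinase of splicing factors, stood at 84.7 and 126 CPM (0.58), and Srsf5 at 229 and 332 (0.54). Of 8 measured p53 targets 2 were higher, Btg2 and Ccng1, with a list median of 0.20.

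Lineage lists had small median differences between the genotypes as counted. Some took the other sign with cells thinned before the gate, which also changed the set of cells in it. The stem cell identity list had a median of 0.05 with 0 of 14 measured genes past the fold, the megakaryocyte list 0.13 with 0 of 10, and the granulocyte and monocyte list -0.11 with 0 of 5. With cells thinned before the gate these medians were -0.24, -0.07 and -0.24, and the lymphoid median was -0.19 in place of 0.01. The erythroid list had a median of 0.19 and a thinned median of 0.51. Among its 13 measured genes Tfrc (the transferrin receptor) and Mt2 were higher and Car1 lower, shares above the 1.8% and 0.18% over all genes. Mt2 and Car1 depended on few cells. For Mt2, 1 cell held 47.97% of the UMIs of WT members and 38.98% of those of KO members. Car1 came from 33 WT and 9 KO members and changed sign after thinning. Mecom had a log2 ratio of 0.05 (-0.14 to 0.23), Gata1 of 0.05 (-0.21 to 0.30), Itga2b of -0.01 (-0.29 to 0.27) and Flt3 of 0.01 (-0.30 to 0.32). As counted, the intervals of these 4 genes lay within 1.5-fold either way. They cover counting error only, and the lineage limit removed unequal shares of the 2 libraries. The intervals therefore cannot show that the genotypes were alike.

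Few genes were lower in KO members besides Bclaf1. Isg15, an interferon-induced ubiquitin-like protein, stood at 20.2 CPM in WT and 10.5 in KO (-0.94, -1.34 to -0.55), and Ifi27 at 63.6 and 37.8 (-0.75, -0.96 to -0.55). Of 16 measured interferon response genes 3 were lower, Isg15, Ifi27 and Ifi35, and the median of the list was -0.04. Ltb stood at 30.68 and 19.996 CPM (-0.62), and Tnfaip8l2, a brake on inflammatory signalling, at 21.3 and 12.7 (-0.74). Tyrobp (-0.57), Fcer1g (-0.53), both adaptors of myeloid receptors, and Wdr89 (-0.54) ranked among the lowest by their interval but did not reach 1.5-fold.

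Car1, an erythroid carbonic anhydrase, and Gm15915 were lower in KO members as counted, but not with cells thinned before the gate. Thinning also let in cells that the lineage limit had removed. The gate then held 590 WT and 317 KO cells in place of 462 and 190. Car1 stood at 26.8 CPM in WT members and 8.44 in KO members (-1.66, -2.10 to -1.25), from 33 WT and 9 KO cells, and the highest cell held 20.7% and 43.9% of the UMIs. With cells thinned before the gate the ratio was 0.83. Gm15915 stood at 54.2 and 22.1 CPM (-1.30, -1.56 to -1.04), and 0.11 after thinning. The cells removed for a lineage transcript held 103 CPM of Car1 in WT and 160 in KO, and 146 and 145 CPM of Gm15915. The parts of the depth difference and of the changed set of cells in these ratios were not tested.

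**Figure D5:**
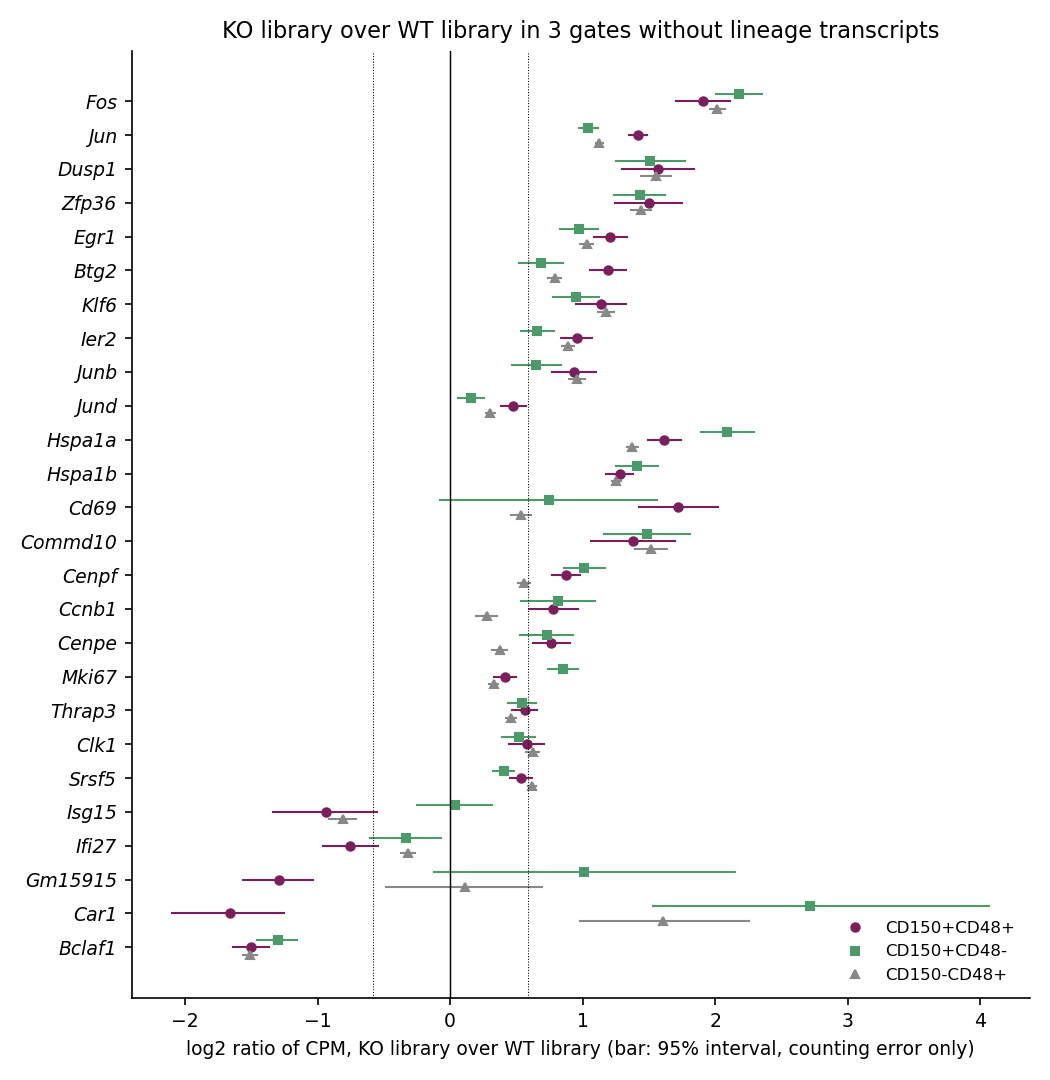
Log2 ratio of CPM in the KO library over the WT library for 26 genes (rows) in CD150+CD48+ cells (circles), CD150+CD48- cells (squares) and CD150-CD48+ cells (triangles); bars are 95% intervals of counting error and dotted lines mark 1.5-fold. Immediate early genes lie to the right in all 3 gates, Bclaf1 lies near -1.50 to -1.30 in all, and Car1 and Gm15915 lie left only in the CD150+CD48+ cells.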

How the data were processed

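The authors deposited unnormalized UMI counts for genes and antibodies over all barcodes, written by Cell Ranger 4 per the file headers; the submitters' processing notes name version 4.0.6, build mm10, and Seurat and DESeq without versions or steps. Each matrix listed 32285 genes and 6 antibodies over 2395014 WT and 2456731 KO barcodes, unfiltered. Cells, CLR values and gates followed the stated limits. The members and gene lists were chosen with earlier results of these data known.

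UMIs were summed per library and gate and given as CPM. Shares carry exact Clopper-Pearson 95% intervals and ratios an exact interval for 2 Poisson counts, from the binomial given their sum. PCR, library and embryo variation are outside both. Ratio intervals also leave out variation between cells, so they are too narrow for genes whose UMIs came from few cells. The ratio code was tested on simulated data. List medians left out genes below a mean of 5 CPM, and calls needed 20 CPM and 1.5-fold. Thinning drew 8000 UMIs per cell (seed 20). For ratios and list medians given after thinning, the lineage limit was applied to the thinned counts. The gate then held 590 WT and 317 KO cells. Shares of members with a transcript at 8000 UMIs kept the 462 and 190 members. Il7r-positive cells had at least 2 UMIs of Il7r and under 2 of Klf1, and Klf1-positive cells the reverse. Scrublet in scanpy 1.11.5 called 0 WT and 2 KO cells (0.0729%) and so did not work as a caller; doublets remained. Empty droplets were barcodes with 100 to 300 UMIs. Gene positions and promoters came from RefSeq on GRCm38.p6. Python 3.11.15, numpy 2.4.6, scipy 1.17.1 and pandas 2.3.3 were used.

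Named genes were Bclaf1, Slamf1, Cd48, Gata2, the antibody targets, the 10 highest and 10 lowest per comparison by the interval bound nearest 0 (gate, haemoglobin, sex-linked and mitochondrial genes not ranked), and up to 4 members per list with the largest absolute log2 ratio at 20 CPM or more. Other list members named, and those ranked against cells with lineage transcripts, were chosen after their values were seen. Some genes that the rule names are not reported here. Of 652 gene names in the 33 lists 649 were found.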

Additional observations from a re-analysis of the deposited data

Results flagged for a closer look

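Car1 stood out because its ratio between genotypes had opposite signs in neighbouring gates. The log2 ratio of KO over WT was -1.66 in CD150+CD48+ cells, 2.71 in CD150+CD48- cells and 1.61 in CD150-CD48+ cells. The UMIs came from 33 WT and 9 KO members, and the ratio in members was 0.83 with cells thinned before the gate. Gm15915 had a log2 ratio of -1.30 in CD150+CD48+ cells and 1.01 (-0.12 to 2.15) in CD150+CD48- cells, and 0.11 in members after thinning. With 1 library per genotype, neither difference between gates was tested.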

How the results depend on the processing

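The share of members moved with the gate. In WT it was 7.19% and 11.1% with the CD150 limit raised and lowered by 0.3, 7.46% and 9.70% with the CD48 limit raised and lowered by 0.3, 5.94% with no lineage UMI allowed and 11.0% after thinning. In KO it was 5.47% and 8.53% with the CD150 limit raised and lowered, 4.08% with no lineage UMI allowed and 11.6% after thinning. Bclaf1 had a log2 ratio of -1.70 after thinning. Genes higher and lower in KO members numbered 223 and 28 with no lineage UMI allowed, 52 and 22 with median-of-ratios scaling, 177 and 62 after thinning, and 372 and 85 with a minimum of 5 CPM. Genes higher and lower than in CD150+CD48- cells numbered 297 and 242 with median-of-ratios scaling and 239 and 1090 with a minimum of 5 CPM. Against CD150-CD48+ cells, 333 were higher and 296 lower with a minimum of 5 CPM, and 204 lower after thinning. The immediate early median was 1.14 with a list minimum of 20 CPM.

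Car1 (0.83) and Gm15915 (0.11) changed sign between genotypes after thinning, as did the medians of imprinted genes (-0.017) and the BCL2 family (-0.017). In KO members over CD150-CD48+ cells, thinning turned the medians of stem cell genes (-0.032) and cholesterol synthesis (-0.017), and the lowered CD150 limit that of mast, basophil and eosinophil genes (0.52). The NF-kB and TNF median over CD150-CD48+ cells in WT was 0.22 with a minimum of 20 CPM. The erythroid median over CD150+CD48- cells in KO was -0.15 with the CD150 limit lowered and -0.33 with the CD48 limit raised. Of the other values, 1413 list medians and 1023 named gene ratios moved by less than their limits, and 303 and 161 by more. A sign change was counted as such only for list medians of at least 0.2 in size. Among smaller medians, 43 of the 303 and 51 of the 1413 also took the other sign. The cause was not tested.

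No paired analysis was possible because each genotype was 1 library, so there was no replicate to leave out.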
